A study of Saccharomyces cerevisiae with 6 samples.

Results

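The DNA replication machinery of budding yeast was described through 48 genes, taken as the open reading frames (ORFs) of origin licensing, the CMG helicase, the replicative polymerases, the sliding clamp and its loader, the single-strand binding protein RPA, fork protection and Okazaki fragment maturation. Members were chosen by function and not by a measured value. They are 48 of 5790 protein-coding ORFs with a value, and all 48 were among the 5211 genes that passed the filter on low values. Poly(A) RNA was sequenced with strand information from cells growing exponentially in YPD, and fission yeast RNA added beforehand served as the spike-in. The 6 libraries form 3 groups of 2, namely wild type, rtt109 (RTT109 deleted) and hst3 hst4 (both HST3 and HST4 deleted). Rtt109 acetylates a lysine in the core of newly made histone H3, a mark that the deacetylases Hst3 and Hst4 take off again. The study's title concerns RNA polymerase II and nucleosomes on replicated DNA, and its RNA data ask how transcript levels differ between these genotypes. A gene's level is its mean sense coverage per 50-base bin of the ORF, scaled to the spike-in, so it is per length. Coverage was mostly higher towards the 3′ end, by more in long ORFs, so levels of genes of unlike length are not directly comparable.

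By their labels, all 3 strains carry can1-100, ura3-1 and trp1-1, together with leu2-3 112 and his3-11 15, and also URA3::GDP-TK(7x), a thymidine kinase cassette, and AUR1c::ADH-Hent1 (spelled AUR1c::ADH-hENT1 for rtt109), a nucleoside transporter. All of them also lack BAR1, whose product destroys alpha factor (∆bar1::HIS3, spelled ∆bar1::His3 for rtt109). Wild type is MATa with ade2-1::ADE2 and Rpb3-3HA::TRP, a tagged subunit of RNA polymerase II. The rtt109 strain is MATa with ∆rtt109::Kan, has ade2-1 without the ADE2 insertion, lists no Rpb3 tag, and is labelled GAL psi+ RAD5+. The hst3 hst4 strain is labelled MATalpha and carries Δhst3::HygMX and Δhst4::NatMX together with ade2-1::ADE2 and Rpb3-3HA::TRP. Mutant and background alleles therefore cannot be told apart in the comparisons with rtt109. The same holds for the deletions and the labelled mating type in hst3 hst4 against wild type. Each genotype is a single listed strain, and no label says that replicates came from separate cultures, so p-values measure only the spread between these libraries. That spread is mostly pooled over all genes.

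Replication starts when the origin recognition complex (ORC), Cdc6 and Cdt1 load the Mcm2-7 ring on origins in G1. Cdc45 and GINS then join to form the active CMG helicase with the help of Sld2, Sld3 and Dpb11. Polymerase alpha-primase lays down primers, polymerases epsilon and delta extend them on the clamp PCNA, and RPA covers the exposed single strands. Many of these genes are transcribed in late G1 by the factor MBF, which binds the MluI cell cycle box ACGCGT, whereas the Mcm2-7 and CDC6 genes are known for transcription around the M/G1 boundary.

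The box was searched because it separates the members by a sequence feature that their selection did not use. In the window from 250 bases before to 50 bases after the ORF start, ACGCGT occurred in 22 of 48 members (45.8%), against 184 of 6001 protein-coding genes with a whole window (3.07%). It reads the same on both strands. At least 2 copies were present in 8 members (16.7%), against 21 of all genes (0.35%). No ORC gene and no Mcm2-7 gene had it in this window. It was present in all 4 fork protection genes, all 3 polymerase delta genes, both Okazaki fragment genes, CDC45, POL30, 3 of 4 polymerase alpha-primase genes, 2 of 4 polymerase epsilon genes, 2 of 3 RPA genes, 1 of 4 GINS genes, 1 of 3 firing factors and 1 of 5 clamp loader genes, and in CDC6. The box of the related factor SBF, searched as CACGAAA on both strands, occurred in 3 members (6.25%: MCM7, SLD5 and RFC1), against 252 of all genes (4.2%). A match is a description of letters, not of binding. The windows of 30 bases below are those of the members with the largest differences between the mutants, read from RefSeq assembly R64 on the strand of the gene, 5′ to 3′, with the box in capitals.
CDC6 (chr10:69122-69151, plus strand): acgcgaggcctcACGCGTcggagtttccag
SLD2 (chr11:234305-234334, plus strand): cacatcacgtttACGCGTatggtgaaacac
RFA1 (chr1:158767-158796, minus strand): tggaaaaatgtcACGCGTaaaaattagacg
RFA1 (chr1:158737-158766, minus strand): aggcgacaaaagACGCGTgaactaacataa
POL30 (chr2:425944-425973, minus strand): ccaaaacgcgaaACGCGTaacttttttttt
CDC45 (chr12:346104-346133, minus strand): gtttcattcacgACGCGTatttttttttca
CDC45 (chr12:346074-346103, minus strand): acatatcatctaACGCGTtttaagaaattt
The first base of the box lay 204 bases before the ORF start in CDC6, 109 in SLD2, 165 and 135 in RFA1, 195 in POL30, and 180 and 150 in CDC45.

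Total coverage on the spike-in scale was 678558 and 784679 for wild type, 474278 and 611350 for rtt109, and 763469 and 654763 in hst3 hst4, and the number of reads behind it is unknown. The median gene of all 5211 tested differed by -0.37 on the log2 scale between rtt109 and wild type on the spike-in scale, by 0.05 on the authors' columns scaled to a mean of 1 (the mean-1 columns) and by -0.07 after centring each library. Changes are therefore given beside the median of all genes, and levels, fold changes and overlaps are on the spike-in scale unless another is named. RTT109 read 0.763 and 0.830 in wild type and 0.00123 and 0.00342 in rtt109. HST3 read 1.32 and 1.36 in wild type and 0.0131 and 0.00999 in hst3 hst4, and HST4 0.470 and 0.672 against 0.0617 and 0.00648. BAR1 was listed at 0 in every library. Mating type markers did not all go with the MATalpha label of the hst3 hst4 libraries: the a-specific receptor gene STE2 read 22.6 and 23.4 there (15.5 and 30.2 in wild type), while the alpha-specific receptor gene STE3 read 0.0209 and 0.0186 (0.00298 and 0.0163 in wild type). Summed levels of the 6 a-specific genes were 47.1 to 56.8 in rtt109, 99.0 to 112 in wild type and 99.6 to 155 in hst3 hst4, and those of the 4 alpha-specific genes 0.453 to 0.477 in wild type, 0.505 to 0.726 in rtt109 and 0.849 to 1.04 in hst3 hst4. Of these 4, MF(ALPHA)1, an alpha factor gene, went the way of the label, at 0.327 and 0.345 in hst3 hst4 against 0.0375 and 0.0271 in wild type and 0.0582 and 0.0929 in rtt109, but was under the filter on low values and not tested. Of 5 a-specific genes tested, MFA2 was called between the mutants (1.47, limma adjusted p = 0.0289) and none in the other comparisons. An unadjusted p under 0.05 was found for 3 with rtt109 and 0 with hst3 hst4 against wild type (20% and 8% of genes tested). Between the mutants it was found for 3 (15.6% of genes tested). The 1 alpha-specific gene tested was not called. The part of the mating type discrepancy in the members' values was not tested.

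**Figure D1:**
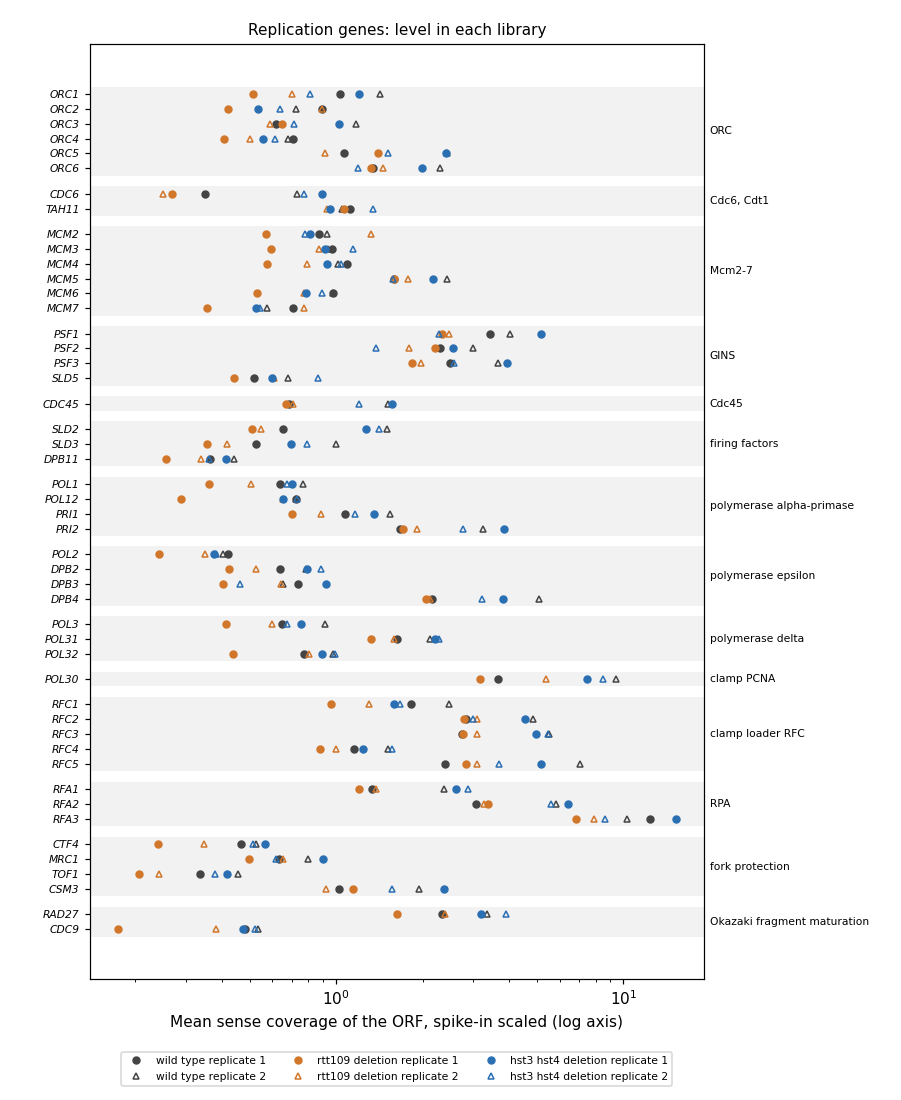
Level of each of the 48 replication genes in the 6 libraries (x axis, mean sense coverage per bin of the ORF, spike-in scaled, log axis), grouped by complex, with 1 point per library. RFA3 has the highest wild-type levels, 12.3 and 10.3, and the orange rtt109 points lie at or near the left of most rows.

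In wild type, the highest member was RFA3, the smallest RPA subunit, at 12.3 and 10.3, and the lowest were TOF1, a fork protection gene, at 0.336 and 0.457, DPB11, which bridges the initiation factors, at 0.364 and 0.441, and POL2, the catalytic subunit of polymerase epsilon, at 0.419 and 0.405. By the mean over 6 libraries, the members ranged from percentile 15.9 of the 5790 ORFs with a value for TOF1 to percentile 90.5 for RFA3. Long ORFs had lower levels: across the 48 members the Spearman correlation of level with ORF length was -0.634, and across all 5211 genes -0.444. These points share libraries and coverage bias along the gene, and the values are descriptions.

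Subunits of a complex did not read at equal levels, and their order recurred across libraries. RFA3 was above RFA2 and RFA2 above RFA1 in all 6 libraries. DPB4, a histone-fold subunit of polymerase epsilon, was the highest of its complex and POL2 the lowest in all 6, with ratios of 5.15 to 12.6. MCM5 was the highest of the Mcm2-7 genes in all 6 libraries, and MCM7 the lowest in 5 of them. SLD5 was the lowest GINS gene, PRI2 the highest of polymerase alpha-primase, POL31 the highest and POL3 the lowest of polymerase delta, RFC4 the lowest of the clamp loader and CSM3 the highest and TOF1 the lowest of fork protection, each in all 6 libraries. In ORC no gene was highest or lowest in more than 4 libraries. In polymerases epsilon and delta the catalytic subunit, which is the longest, was the lowest. These are means over the whole ORF, and coverage was not even along it. In wild type POL2 read 0.184 and 0.0636 on its 5′ side and 0.655 and 0.746 on its 3′ side. On the 3′ side DPB4 read 2.18 and 4.98, and DPB3, at 0.0763 and 0.0597, was below POL2. The part of coverage bias in the order of subunits was not tested.

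No replication gene passed the test between rtt109 and wild type (limma, Benjamini-Hochberg adjusted p under 0.05), where 179 of 5211 genes (3.44%) did, 2.49% higher and 0.94% lower. Of those calls 130 of 179 were higher on the spike-in scale, 247 of 257 on the mean-1 columns and 153 of 164 after centring. At an unadjusted p under 0.05 there were 6 members, against 20% of genes tested: ORC1, RFC1, CDC6, SLD3, SLD2 and CDC9. The log2 fold changes ran from -0.94 for ORC1 to -0.04 for MCM2, with a median of -0.49 against -0.37 for all genes. On the spike-in scale all 48 were below 0, as were 77.9% of genes tested (22.1% above 0), whereas on the mean-1 columns 32 of 48 were below 0 with a median of -0.08 (0.05 for all genes), and after centring 42 of 48 with a median of -0.19 (-0.07). Both rtt109 libraries lay below both wild-type libraries for 27 of 48 members, against 48.6% of genes tested, and above them for none, against 11.5%. Relative to the median of all genes, 36 of 48 members were lower. Without wild-type replicate 1 it was 39 of 48, and without wild-type replicate 2 it was 28. In an asynchronous bulk culture, fewer cells at the stage that transcribes a gene and less of its RNA per cell cannot be told apart. The standard error (SE) of a member's log2 fold change was 0.36 to 0.40 in all 3 comparisons. It rests mostly on the spread of all genes and little on the gene's own, with 37.7 prior against 3 residual degrees of freedom.

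Between hst3 hst4 and wild type no member passed the test either, where 129 of 5211 genes (2.48%) did, 2.34% higher and 0.134% lower, and no member had an unadjusted p under 0.05 (8% of genes tested). The median log2 fold change of the members was 0.02, against 0.04 for all genes, and values ran from -0.47 for PSF2, a GINS subunit, to 0.65 for CDC6, the ATPase that loads Mcm2-7. On this scale 21 of 48 members were below 0, against 45.1% of genes tested, with 54.9% above it. Both hst3 hst4 libraries were above both wild-type libraries for 4 members, against 20.9% of genes tested, and below them for 7, against 8.9%. Adjusted p-values of the members were 0.825 to 1.000 (limma). At 2 libraries a group this does not show that levels were equal: the 95% confidence interval of CDC6 ran from -0.11 to 1.41.

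Between the mutants, CDC6 was the single member past the threshold. It was higher in hst3 hst4 than in rtt109 (log2 fold change 1.49 ± 0.38 SE, limma adjusted p = 0.0273, n = 2 and 2), where 41 of 5211 genes (0.787%) were called higher 0.595% lower and 72 (1.38%) in either direction. On the mean-1 columns 4 of 26 calls between the mutants were higher and after centring 2 of 14, CDC6 being in neither set. At an unadjusted p under 0.05 there were 14 members, against 15.6% of genes tested. The median of the members was 0.60, against 0.41 for all genes, and 45 of 48 were above 0, against 85.5% of genes tested (14.5% below 0); on the mean-1 columns the medians were 0.24 and 0.04 and 11 members were below 0. Both hst3 hst4 libraries lay above both rtt109 libraries for 36 of 48 members, against 51.1% of genes tested, and below them for no member, against 4.41%. The largest values after CDC6 were SLD2 at 1.25, RFA1 at 1.06, and POL30 and CDC45 at 0.94 each, and the lowest was MCM2 at -0.125. All 3 comparisons draw on the same 3 groups, so they are not independent of each other.

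**Figure D2:**
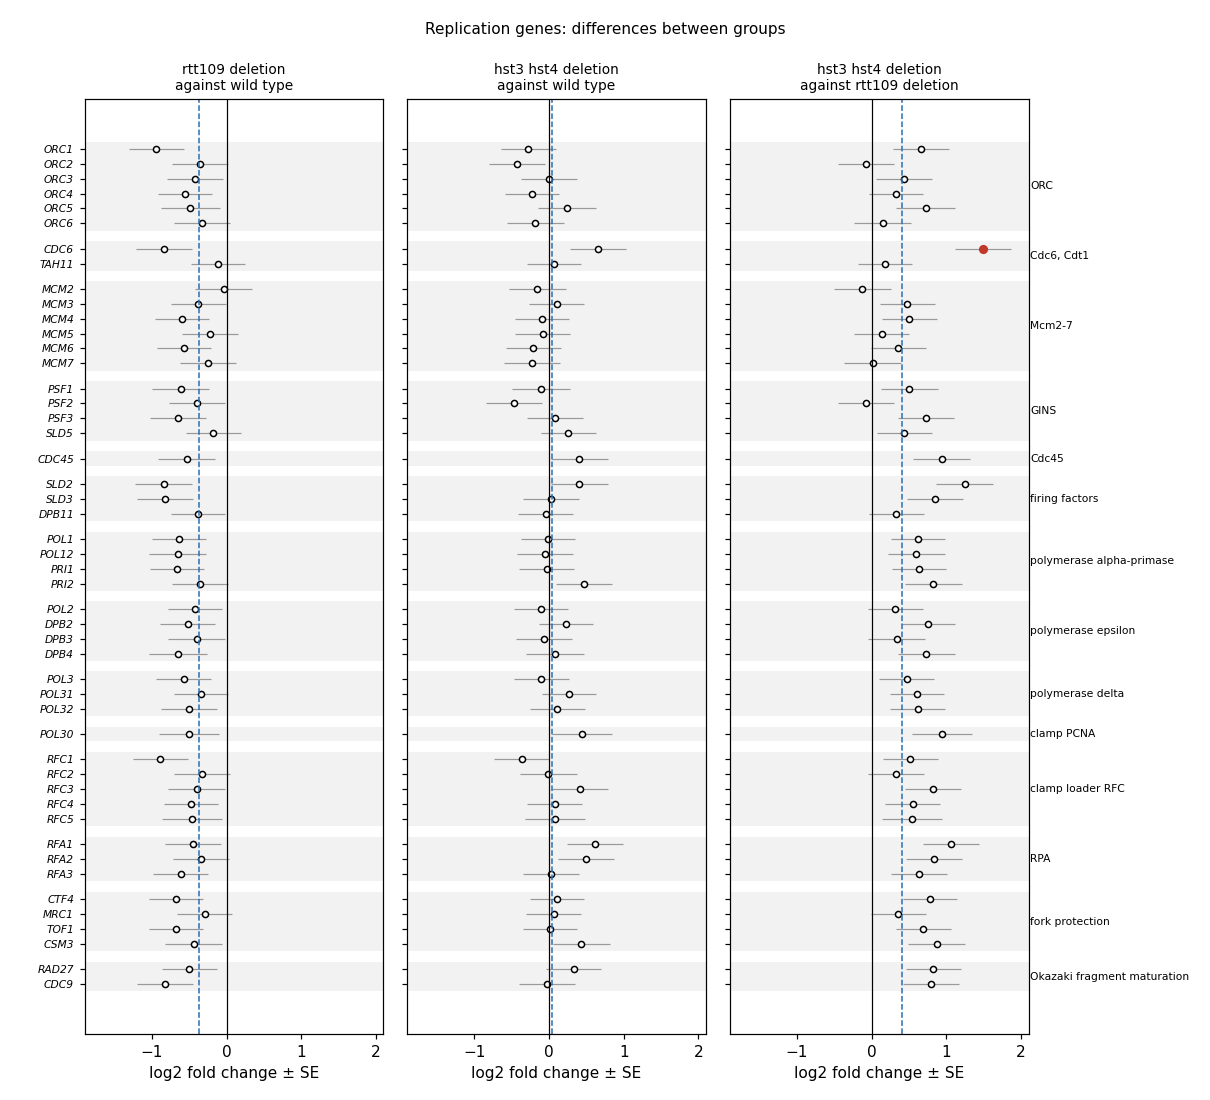
Log2 fold change ± SE of each member in the 3 comparisons (x axis, limma on the spike-in scale), grouped by complex, with the solid line at 0 and the dashed line at the median of all 5211 genes tested. The filled red point, CDC6 at 1.49, is the member past an adjusted p of 0.05; with rtt109 against wild type all 48 points lie left of 0 on this scale, 32 on the mean-1 columns.

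CDC6 (YJL194W, 69351 to 70950 on chromosome 10 of the table's own build) read 0.349 and 0.730 in wild type, 0.267 and 0.249 in rtt109, and 0.891 and 0.775 in hst3 hst4. The 2 mutants did not overlap, and wild type spanned most of the gap between them. Its log2 fold change was -0.84 for rtt109 against wild type (limma adjusted p = 0.213) and 0.65 for hst3 hst4 against wild type (adjusted p = 0.825). The call between the mutants was lost on the mean-1 columns (1.14, adjusted p = 0.172) and after centring (1.12, adjusted p = 0.224). It was also lost without rtt109 replicate 1 (1.53, adjusted p = 0.807), without rtt109 replicate 2 (1.45, adjusted p = 0.355) and without hst3 hst4 replicate 1 (1.39, adjusted p = 0.130), and over 17 alternatives the adjusted p ran from 0.0138 to 0.807. In the alternatives that lost the call the log2 fold change was 0.75 to 1.53. TAH11 (YJR046W), which encodes Cdt1, the partner of Cdc6 in loading, read 1.12 and 1.04 in wild type, 1.06 and 0.929 in rtt109, and 0.950 and 1.35 in hst3 hst4, and the 3 groups overlapped.

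ORC marks origins and recruits Cdc6. ORC1 (YML065W), its ATPase, read 1.03 and 1.42 in wild type, 0.513 and 0.704 in rtt109, and 1.20 and 0.808 in hst3 hst4. Both rtt109 libraries were the lowest, and hst3 hst4 overlapped wild type. ORC1 had the largest log2 fold change of all members for rtt109 against wild type, -0.94 (limma adjusted p = 0.164), and ORC6 the smallest of its complex in size, -0.33 (0.585). Against wild type, hst3 hst4 values ran from -0.43 for ORC2 to 0.24 for ORC5, and between the mutants from -0.08 for ORC2 to 0.72 for ORC5, with adjusted p-values of 0.347 or more. ORC5 (YNL261W) read 1.06 and 2.43 in wild type, so its 2 control libraries lay farther apart than the group means. ORC3 and ORC4 had wild-type levels of 0.616 and 1.17, and of 0.706 and 0.682.

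Mcm2-7 is the motor ring of the helicase. MCM2 (YBL023C) read 0.869 and 0.926 in wild type, 0.569 and 1.32 in rtt109, and 0.813 and 0.778 in hst3 hst4. The rtt109 libraries held both its lowest and its highest value. MCM4 (YPR019W) read 1.09 and 1.02 in wild type, 0.574 and 0.794 in rtt109, and 0.929 and 1.04 in hst3 hst4. Its rtt109 libraries were below the other 4. For rtt109 against wild type the complex ran from -0.60 for MCM4 (limma adjusted p = 0.330) to -0.04 for MCM2 (0.956), with a median of -0.31, above the -0.37 of all genes. For hst3 hst4 against wild type it ran from -0.23 for MCM7 to 0.10 for MCM3, and between the mutants from -0.125 for MCM2 to 0.51 for MCM4, with a median of 0.25 against 0.41 for all genes. MCM3 (YEL032W), MCM6 and MCM7 read 0.573 to 0.978 in the wild-type libraries, and MCM5 read 1.59 and 2.44.

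The other parts of CMG are GINS and Cdc45. CDC45 (YLR103C) read 0.685 and 1.52 in wild type, 0.670 and 0.710 in rtt109, and 1.57 and 1.20 in hst3 hst4. Wild-type replicate 1 lay with rtt109 and wild-type replicate 2 with hst3 hst4. Its log2 fold change between the mutants was 0.94 (limma adjusted p = 0.253), and against wild type -0.53 for rtt109 and 0.41 for hst3 hst4. Among GINS genes the values for rtt109 against wild type ran from -0.65 for PSF3 (adjusted p = 0.307) to -0.18 for SLD5 (0.770). For hst3 hst4 against wild type they ran from -0.47 for PSF2 to 0.26 for SLD5, and between the mutants from -0.08 for PSF2 to 0.73 for PSF3. In hst3 hst4 replicate 2 PSF1, PSF2 and PSF3 read 2.28, 1.37 and 2.58, below the 5.16, 2.56 and 3.95 of replicate 1.

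Sld2, Sld3 and Dpb11 bring Cdc45, GINS and polymerase epsilon to the loaded ring and are limiting for origin firing in budding yeast. SLD2 (YKL108W) read 0.655 and 1.51 in wild type, 0.511 and 0.550 in rtt109, and 1.27 and 1.41 in hst3 hst4. The mutants were apart, with wild-type libraries near each. The log2 fold change of SLD2 was 1.25 between the mutants (limma adjusted p = 0.106) and -0.84 for rtt109 against wild type (0.219). SLD3 (YGL113W) read 0.528 and 1.00 in wild type, 0.357 and 0.417 in rtt109, and 0.695 and 0.795 in hst3 hst4, with -0.83 for rtt109 against wild type (0.218) and 0.85 between the mutants (0.283). All 3 genes had both rtt109 libraries below both libraries of each other group. Of genes tested, 48.6% had both below both wild-type libraries and 51.1% had both below both hst3 hst4 libraries. DPB11 had the value nearest to 0 for rtt109 against wild type, -0.38, and the lowest for hst3 hst4 against wild type, -0.05, and between the mutants, 0.33. SLD2 had the highest for hst3 hst4 against wild type, 0.40.

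Polymerase alpha-primase makes the primers. PRI2 (YKL045W), the large primase subunit, read 1.67 and 3.26 in wild type, 1.71 and 1.92 in rtt109, and 3.84 and 2.76 in hst3 hst4. Wild-type replicate 1 lay with rtt109 and replicate 2 between the hst3 hst4 libraries. It had the value of its complex nearest to 0 for rtt109 against wild type, -0.36 (limma adjusted p = 0.560), and the highest for hst3 hst4 against wild type, 0.47, and between the mutants, 0.82 (0.300). PRI1, the catalytic primase subunit, had the lowest for rtt109, -0.66 (0.293). POL12 had the lowest for hst3 hst4 against wild type, -0.06, and between the mutants, 0.60. POL1 (YNL102W), the polymerase subunit, read 0.636 and 0.766 in wild type. All 4 genes had both hst3 hst4 libraries above both rtt109 libraries, as did 51.1% of genes tested.

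Polymerase epsilon extends the leading strand. DPB4 (YDR121W) read 2.16 and 5.09 in wild type, 2.05 and 2.13 in rtt109, and 3.82 and 3.23 in hst3 hst4. Wild-type replicate 2 was the highest library and replicate 1 lay beside rtt109. DPB4 had the lowest value of its complex for rtt109 against wild type, -0.65 (limma adjusted p = 0.318), and DPB3 the one nearest to 0, -0.40. DPB2 had the highest for hst3 hst4 against wild type, 0.23, and between the mutants, 0.75 (0.311), and POL2 the lowest in both, -0.11 and 0.32. All 4 genes had both rtt109 libraries below both wild-type libraries, as did 48.6% of genes tested.

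Polymerase delta extends the lagging strand. POL3 (YDL102W), its catalytic subunit, read 0.646 and 0.916 in wild type, 0.412 and 0.599 in rtt109, and 0.753 and 0.674 in hst3 hst4. The rtt109 libraries were the lowest. POL3 had the lowest value of its complex in all 3 comparisons, -0.57 for rtt109 against wild type (limma adjusted p = 0.349), -0.10 for hst3 hst4 against wild type and 0.47 between the mutants. POL31 had the highest in both comparisons with wild type, -0.34 and 0.26, and POL32 the highest between the mutants, 0.62 (0.369).

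PCNA, encoded by POL30, is the ring that tethers polymerases to DNA, and RFC opens it. POL30 (YBR088C) read 3.65 and 9.45 in wild type, 3.17 and 5.37 in rtt109, and 7.47 and 8.53 in hst3 hst4. The hst3 hst4 libraries were both above rtt109 and both between the wild-type libraries. Its log2 fold change was 0.94 between the mutants (limma adjusted p = 0.270). RFC5 (YBR087W) read 2.40 and 7.07 in wild type, a ratio of 2.94 between replicates and the largest of all members, against 2.84 and 3.10 in rtt109 and 5.17 and 3.69 in hst3 hst4. RFC1 (YOR217W), the large subunit, read 1.82 and 2.47 in wild type, 0.956 and 1.30 in rtt109, and 1.58 and 1.67 in hst3 hst4. RFC1 stood below wild type in all 4 mutant libraries, with the lowest value of its complex in both comparisons with wild type, -0.89 for rtt109 (0.182) and -0.37 for hst3 hst4. RFC2 had the value nearest to 0 for rtt109, -0.33, and the lowest between the mutants, 0.32. RFC3 had the highest for hst3 hst4 against wild type, 0.41, and between the mutants, 0.82 (0.302). RFC4 (YOL094C) read 1.16 and 1.52 in wild type.

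RPA coats single-stranded DNA. RFA1 (YAR007C), the large subunit, read 1.33 and 2.38 in wild type, 1.20 and 1.38 in rtt109, and 2.62 and 2.89 in hst3 hst4. Both hst3 hst4 libraries were above the other 4, and wild-type replicate 1 lay between the rtt109 libraries. RFA1 had log2 fold changes of 0.61 for hst3 hst4 against wild type (limma adjusted p = 0.876) and 1.06 between the mutants (0.177). RFA2 (YNL312W) read 3.06 and 5.85 in wild type, 3.39 and 3.28 in rtt109, and 6.42 and 5.61 in hst3 hst4, and was the gene of the complex nearest to 0 for rtt109, -0.34. RFA2 had 0.50 for hst3 hst4 against wild type. RFA3 had the lowest value for rtt109 against wild type, -0.62 (0.328), for hst3 hst4 against wild type, 0.02, and between the mutants, 0.64. It rested on 6 bins.

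Mrc1, Tof1 and Csm3 travel with the fork and hold it together, and Ctf4 links the helicase to polymerase alpha. CSM3 (YMR048W) read 1.02 and 1.95 in wild type, 1.14 and 0.920 in rtt109, and 2.37 and 1.56 in hst3 hst4. TOF1 (YNL273W) read 0.336 and 0.457 in wild type, 0.206 and 0.242 in rtt109, and 0.418 and 0.378 in hst3 hst4. For both genes the hst3 hst4 libraries were above rtt109, as for 51.1% of genes tested, and overlapped wild type. TOF1 had the lowest value of the group for rtt109 against wild type, -0.68 (limma adjusted p = 0.281), and for hst3 hst4 against wild type, 0.02. CSM3 had the highest for hst3 hst4 against wild type, 0.43, and between the mutants, 0.87 (0.281). MRC1 had the value nearest to 0 for rtt109, -0.29, and the lowest between the mutants, 0.36. CTF4 (YPR135W) read 0.467 and 0.528 in wild type.

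Rad27 trims the flap of an Okazaki fragment and Cdc9, DNA ligase I, seals it. RAD27 (YKL113C) read 2.34 and 3.36 in wild type, 1.62 and 2.40 in rtt109, and 3.20 and 3.92 in hst3 hst4. Its log2 fold change between the mutants was 0.83 (limma adjusted p = 0.297). CDC9 (YDL164C) read 0.480 and 0.534 in wild type, 0.174 and 0.382 in rtt109, and 0.474 and 0.522 in hst3 hst4, with -0.82 for rtt109 against wild type (0.223) and 0.80 between the mutants (0.304). For both genes the hst3 hst4 libraries were above rtt109, as for 51.1% of genes tested. The CDC9 value rested on 5 bins because the table labels 7 bins of the gene with its name. Over the 47 bins up to the ORF start CDC9 read 0.797 and 1.00 in wild type, 0.450 and 0.646 in rtt109, and 0.942 and 1.04 in hst3 hst4.

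**Figure D3:**
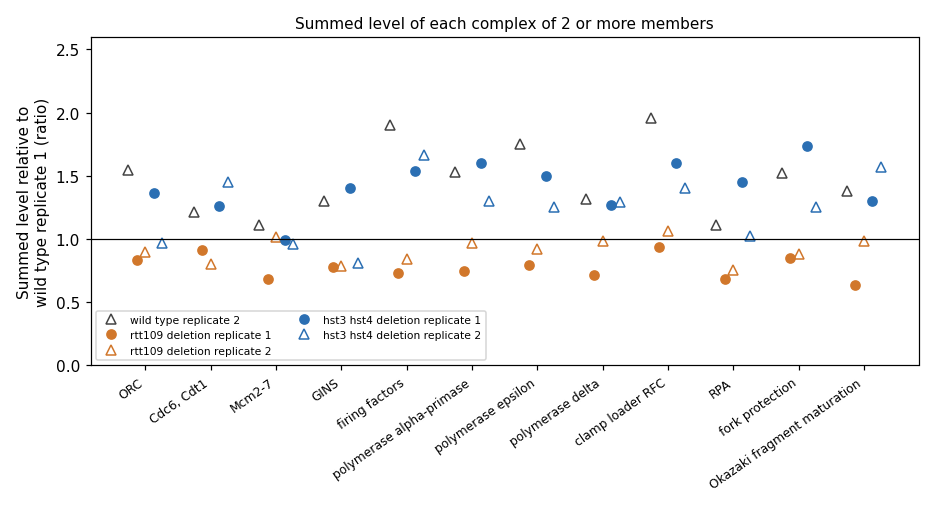
Summed level of each complex of 2 or more members in each library, divided by the sum in wild-type replicate 1 (y axis, ratio, from 0; line at 1). Wild-type replicate 2 lies above 1 in every complex, from sums of 6.20 and 6.87 for Mcm2-7 to 11.0 and 21.4 for the clamp loader.

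Compared across complexes, the median log2 fold change for rtt109 against wild type was lowest in the firing factors, -0.83, and highest in Mcm2-7, -0.31. Between the mutants it was highest in the firing factors, 0.85, and in RPA, 0.84, among complexes of 3 or more members, and lowest in Mcm2-7, 0.25, and ORC, 0.38. The 2 loading and licensing rings, ORC and Mcm2-7, were thus below the 0.41 of all genes between the mutants, and all other complexes of 3 or more members were above it. Summed levels of Mcm2-7 were 6.20 and 6.87 in wild type, 4.21 and 6.31 in rtt109, and 6.15 and 5.97 in hst3 hst4, so rtt109 replicate 2 lay inside the range of the other groups. Summed levels of the clamp loader were 11.0 and 21.4 in wild type, 10.2 and 11.6 in rtt109, and 17.5 and 15.4 in hst3 hst4. Differences between complexes were not tested, and complexes of 3 to 6 genes share the same 6 libraries.

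The 2 wild-type libraries differed from each other for many members. The log2 ratio of replicate 2 to replicate 1 had a median of 0.38 over the members, against 0.22 for all genes, and it was above 0 for 37 of 48 members and 3663 of 5211 genes tested. It was largest in single genes for RFC5 (a ratio of 2.94), POL30 (2.59), DPB4 (2.36), SLD2 (2.30), ORC5 (2.29), CDC45 (2.22) and CDC6 (2.09). By complex the median ran from -0.02 in Mcm2-7 to 0.77 in the clamp loader, 0.82 in RPA and 0.85 in the firing factors. The rtt109 pair also differed, with a median of 0.26 over the members and 0.29 for all genes. Its ratio was above 0 for 41 of 48 members and 4049 of 5211 genes. In hst3 hst4 the medians were -0.09 and -0.11, with 22 of 48 members and 2191 of 5211 genes above 0. The summed level of the members was 72.0 and 107 in wild type, 55.9 and 66.5 in rtt109, and 105 and 87.2 in hst3 hst4. Without wild-type replicate 1 the members' median for rtt109 against wild type was -0.74 (-0.47 for all genes), and without replicate 2 it was -0.31 (-0.22) with 34 of 48 below 0. For hst3 hst4 against wild type the same medians were -0.14 (-0.09) and 0.21 (0.19).

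Genes of the late G1 transcription wave outside the module were read in the same libraries. Of 12 listed G1/S genes 11 were tested, and all 11 were higher in wild-type replicate 2 than in replicate 1, with a median log2 ratio of 0.68, as were 3663 of 5211 genes tested. The 7 G2/M genes had a median of -0.05 and the 7 M/G1 genes of -0.24. In rtt109 all 11 G1/S genes were also higher in replicate 2, with a median of 0.65, as were 4049 of 5211 genes tested. The G2/M and M/G1 medians there were 0.50 and 0.53. In hst3 hst4 5 of the 11 G1/S genes were higher in replicate 2, with a median of -0.05. The summed G1/S level was 16.6 and 26.8 in wild type, 11.7 and 18.6 in rtt109, and 26.0 and 28.3 in hst3 hst4. The G1/S medians were -0.63 for rtt109 and 0.28 for hst3 hst4 against wild type and 0.92 between the mutants, where YOX1, a repressor of M/G1 genes, passed the test (1.74 ± 0.39 SE, limma adjusted p = 0.0105). YOX1 read 0.582 and 1.36 in wild type, 0.292 and 0.500 in rtt109, and 1.41 and 1.44 in hst3 hst4. None of the 11 passed in the comparisons with wild type, where 5 and 1 had an unadjusted p under 0.05 (20% and 8% of genes tested), and TOS4 and YOX1 had the smallest p for rtt109 (-0.99 and -1.10) and PCL1 and HCM1 for hst3 hst4 (0.84 and 0.73). Of the G2/M genes none passed in any comparison, with 1, 0 and 0 at an unadjusted p under 0.05 (20%, 8% and 15.6% of genes tested), and CLB2 and CDC5 had the smallest p for rtt109 (-0.95 and -0.55) and between the mutants (0.64 each), and CLB1 and CLB2 for hst3 hst4 against wild type (0.58 and -0.31). Of the M/G1 genes EGT2 passed for rtt109 against wild type (-1.38, limma adjusted p = 0.0235), and 4 had an unadjusted p under 0.05 (20% of genes tested). None passed in the other comparisons, where 0 and 1 had an unadjusted p under 0.05 (8% and 15.6% of genes tested). There EGT2 and CTS1 had the smallest p for hst3 hst4 against wild type (-0.72 and -0.45). PCL9 and EGT2 had it between the mutants (1.12 and 0.65). The part of cell cycle stage in the members' values was not tested.

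**Figure D4:**
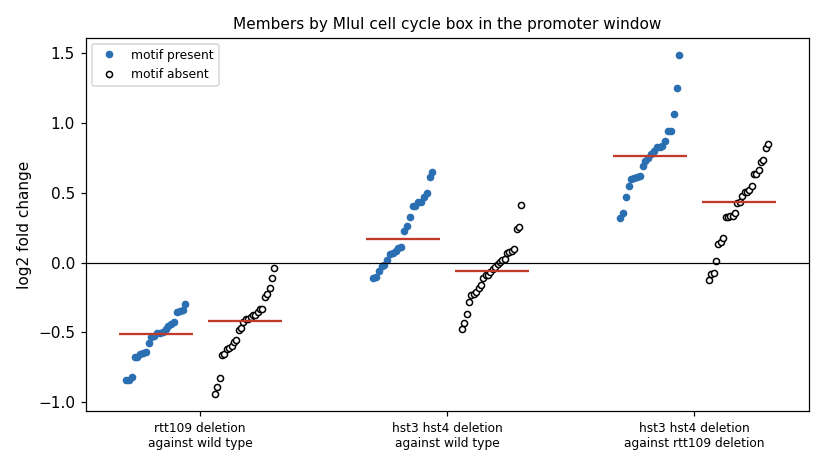
Log2 fold change (y axis) of the 22 members with ACGCGT in the promoter window (filled) and the 26 without it (open) in the 3 comparisons, sorted within each set, with red lines at the medians. The medians between the mutants are 0.76 and 0.43, and those for rtt109 against wild type, on this spike-in scale, -0.51 and -0.41.

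Members with the MluI cell cycle box had a median log2 fold change between the mutants of 0.76, from 0.32 to 1.49, and those without it 0.43, from -0.125 to 0.85. For hst3 hst4 against wild type the medians were 0.17 and -0.06, and for rtt109 against wild type -0.51 and -0.41. The 5 members with the largest values between the mutants, which were chosen for those values and whose windows are printed above, all carried the box. Of all 48 members 22 did, and the 5 rest on the same values as these medians. Among all genes tested, members included, the 173 with the box had medians of 0.58, 0.10 and -0.50 in the same order. The 5038 without it had 0.40, 0.04 and -0.36. The 151 genes with the box outside the members had 0.55, 0.09 and -0.48. The 2 sets of members were of similar length, with medians of 30.5 and 33 bins. They differed in complex, as every ORC gene and every Mcm2-7 gene was in the set without the box. Medians between the mutants were 0.38 in ORC and 0.25 in Mcm2-7, and the part of complex in the difference was not tested. In the wild-type replicates, 20 of 22 members with the box were higher in replicate 2, and 17 of 26 without it, against 134 of 173 and 3529 of 5038 of all genes tested. For rtt109 these were 19 of 22 and 22 of 26, against 142 of 173 and 3907 of 5038. For hst3 hst4 they were 11 of 22 and 11 of 26, against 68 of 173 and 2123 of 5038. No test was made of the 2 sets.

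Of 26 other replication genes, such as the kinase Cdc7-Dbf4, chromatin assembly factors and alternative clamp loaders, none passed in any comparison. At an unadjusted p under 0.05 there were 4, 0 and 6 for rtt109 against wild type, hst3 hst4 against wild type and between the mutants, against 20%, 8% and 15.6% of genes tested. Their medians were -0.44, 0.05 and 0.55, close to those of the members. TOP1, topoisomerase I, and ELG1, of the complex that unloads PCNA, had the smallest p for rtt109 against wild type (-0.91 and -0.86, limma adjusted p = 0.172 and 0.193). RNH201, a subunit of RNase H2, and the histone chaperone gene ASF1 had the smallest between the mutants (1.09 and 1.08, adjusted p = 0.151 and 0.157), and ECO1 and MCM10 for hst3 hst4 against wild type (0.62 and -0.49).

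**Figure D5:**
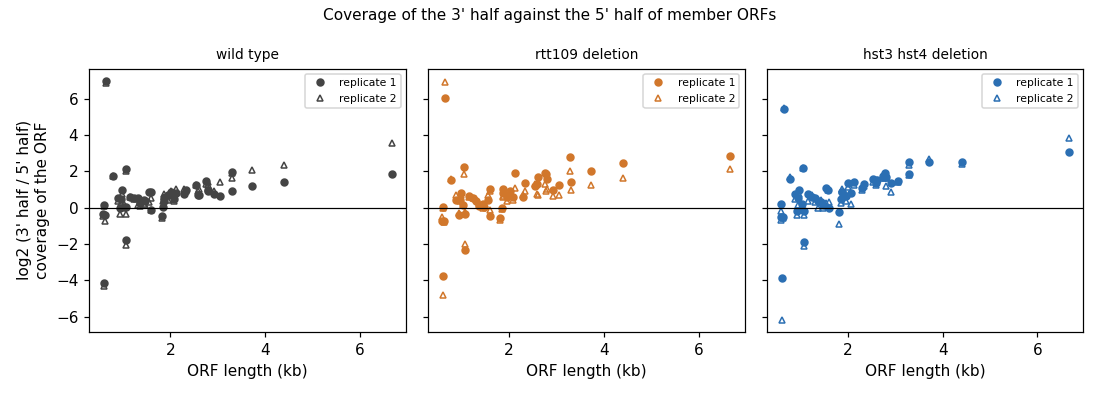
Log2 ratio of coverage on the 3′ side of each member ORF to that on its 5′ side (y axis) against ORF length in kb (x axis), in 3 panels by group, for 46 members. Most long ORFs lie above 0 in all 6 libraries, PSF2 lies near 7 in wild type and DPB3 near -4.

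Coverage of the members was mostly higher towards the 3′ end of the ORF, and by different amounts between libraries. For the 6 members of 60 bins or more the median log2 ratio of the 3′ to the 5′ side, split at the middle of the ORF, was 1.31 and 2.01 in wild type, 2.24 and 1.46 in rtt109, and 2.51 and 2.37 in hst3 hst4. For the 433 such genes of the whole genome it was 1.19 and 1.94, 1.90 and 1.31, and 2.25 and 2.31. POL2, the longest member, had 1.83 and 3.55 in wild type. Short members could go far from 0: PSF2 had 7.00 and 6.87 in wild type, and DPB3 -4.16 and -4.33. The level of PSF2 thus came from its 3′ side and that of DPB3 from its 5′ side in both wild-type libraries. With values taken from the 3′ side of every ORF, no member was called in any comparison and CDC6 had 1.52 between the mutants (limma adjusted p = 0.0865). The part of coverage bias in the differences between groups was not tested beyond this.

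Antisense coverage over the members was low, with a median of 1.39% of the sense level for the 46 members with bins free of an opposite ORF, against 1.17% for 5013 genes. RFC2 was the exception with 41.2%, and SLD5 (18.1%), PSF2 (14.8%), TOF1 (14.8%) and DPB2 (10.6%) followed. RFC2 antisense coverage read 1.14 and 2.29 in wild type, 0.873 and 0.784 in rtt109, and 2.18 and 1.43 in hst3 hst4, and was lowest in rtt109. A replication timing score deposited beside the coverage was low at annotated origins (median 38.4 over their bins, 47.1 over all bins). The members had a median score of 50.4 against 47.4 for genes tested, from 26.2 for CSM3 to 80.3 for CDC9, with 7 under the lower quartile of genes tested and 11 over the upper one.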

How the data were processed

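Poly(A) RNA of 6 libraries was made into stranded libraries after fission yeast RNA had been added, per the labels' protocols. The authors deposited coverage, a signal per strand in 50-base bins, scaled to the spike-in or to a mean of 1, per the file headers. The deposited timing score has no stated unit. Base calling used CASAVA 1.7.0, per the submitters' processing notes; neither the aligner nor the budding yeast build is given in the sources used here. Table positions lay within 1 bin of RefSeq R64 for 91.0% to 100% of ORFs on 15 chromosomes and for 26.1% on chromosome 11, so table coordinates were kept apart from R64, and promoter windows were read from R64 by locus tag (all 48 members matched).

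Bins with a letter instead of a number, 11670 of 240976 (4.84%), were not used. A gene's value was the mean sense coverage over ORF bins without the first and last bin, introns or bins shared with another ORF on that strand. Watson ORFs had 98.0% of their coverage in the R columns and Crick ORFs 98.4% in the F columns. limma 3.58.1 (R 4.3.3) was run on log2(value + 0.0587), the pseudocount being percentile 5 of values above 0, which understates changes of low genes. The 579 genes in the lowest 10% by mean level were not tested. All 6 libraries entered 1 fit (3 residual and 37.7 prior degrees of freedom), with Benjamini-Hochberg adjustment over 5211 genes and a two-sided threshold of 0.05. Tables were read with Python 3.11.15. The fit was tested on simulated data with a common spread for all genes and no shift of whole libraries. Such data cannot show how it performs on these libraries. Replicates correlated at r = 0.964, 0.973 and 0.951 over 5211 genes, with 0 genes at an identical value above 0 in a pair.

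Members and lists were chosen with earlier results of these data known. Values were given for each member past the threshold, for the 5 of largest change, and for the highest and lowest of each complex of 3 or more members; in other lists for those past the threshold or the 2 of smallest p. RFC2 antisense, PSF2, DPB3 and the members in the account of wild-type replicates were chosen after their values were seen. Alternatives changed the scale, filter, pseudocount, bins, replicate block and each library in turn.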

Additional observations from a re-analysis of the deposited data

How the results depend on the processing

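Over the 17 alternatives, 84 log2 fold changes of named members changed sign, none of which had been called, 12 lost a call (all CDC6 between the mutants) and 1042 kept their direction and side of the threshold. The 3′ side of each ORF, the extended bins of CDC9 and POL30, and centring without a wild-type library were chosen after seeing the data. No member was called in either comparison with wild type under any of these 17. The 2 libraries a group and the spread between wild-type replicates limit what can be shown, depth in reads is unknown, and with a library left out the lone one is assumed to vary like the other groups. Unless stated, the cause was not tested.

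Genes called for rtt109 against wild type, 179, became 4 with no filter on low values, 2 with a pseudocount 10 times larger, 92 on the 3′ side, and 105 and 11 after centring without wild-type replicate 1 and 2; leaving out 1 library gave 3 to 250, with 84 without wild-type replicate 2, 4 and 3 without rtt109 replicate 1 and 2. For hst3 hst4 against wild type, 129 became 53 after centring, 2 with no filter, 1 with the larger pseudocount, and 3 and 4 after centring without wild-type replicate 1 and 2; leaving out 1 library gave 2 to 123, with 80 without wild-type replicate 1 and 2 without either rtt109 library. Between the mutants, 72 became 26 on the mean-1 columns, 14 after centring, 1 with no filter, 0 with the larger pseudocount, 7 on the 3′ side and 15 after centring without either wild-type library; leaving out 1 library gave 0 to 89, with 2 and 0 without rtt109 replicate 1 and 2. The called CDC6 was the 1 member between the mutants, and the count was 0 in each of the settings named for that comparison, with bin medians (adjusted p = 0.0553), and without rtt109 replicate 1, rtt109 replicate 2 or hst3 hst4 replicate 1 (range 0 to 1). CDC6 kept a log2 fold change of 1.14, 1.12, 1.49, 0.75, 1.40 and 1.52 on the mean-1 columns, centred, unfiltered, with the larger pseudocount, bin medians and the 3′ side. The prior degrees of freedom, the weight given to the spread of all genes, also moved with the setting. They were 37.7 in the main fit, 2.40 with no filter, 3.71 with the larger pseudocount and 11.3 on the 3′ side. Without either rtt109 library they were 4.43, and without either wild-type library 76.7. The part of this weight in the counts of calls was not tested.

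The members' median minus that of all genes, -0.12 between rtt109 and wild type, was -0.26 after centring without wild-type replicate 1 and -0.26 to -0.094 over the left-out libraries. It was -0.014 between hst3 hst4 and wild type (-0.055 to 0.020 over the left-out libraries) and 0.19 between the mutants (0.17 to 0.23).

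Deviations of same-numbered libraries correlated at -0.227 between wild type and rtt109, 0.0646 between wild type and hst3 hst4, and 0.222 between the mutants. With 2 libraries a group these values of mixed sign cannot show whether the replicate number pairs the libraries. With the replicate block 101, 95 and 14 genes and 0, 0 and 0 members were called, with CDC6 between the mutants at adjusted p = 0.125.

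Between rtt109 and wild type, signs turned as follows: on the mean-1 columns ORC6 0.076, MCM2 0.35, SLD5 0.24, PRI2 0.090, DPB3 0.010, POL31 0.099, RFC2 0.12, RFA2 0.11 and MRC1 0.091; after centring MCM2 0.26, SLD5 0.12 and MRC1 0.0046; with the larger pseudocount MCM2 0.0019; on the 3′ side MCM2 0.046; after centring without wild-type replicate 1 MCM2 0.37, SLD5 0.094, DPB3 0.13 and MRC1 0.0021; after centring without wild-type replicate 2 ORC6 0.19, MCM2 0.15, SLD5 0.15, PRI2 0.26, DPB4 0.10, RFC2 0.20, RFA2 0.27 and MRC1 0.0071. With 1 library left out the log2 fold change ran for ORC6 from -0.71 to 0.045, MCM2 from -0.61 to 0.53, SLD5 from -0.38 to 0.028, PRI2 from -0.83 to 0.11, RFC2 from -0.72 to 0.050 and RFA2 from -0.80 to 0.12. Its sign turned without wild-type replicate 2 in ORC6, MCM2, SLD5, PRI2, RFC2 and RFA2 and without rtt109 replicate 1 in MCM2 and SLD5.

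Between hst3 hst4 and wild type, signs turned as follows: after centring RFA3 -0.053 and TOF1 -0.059; on the 3′ side POL12 0.061 and POL3 0.036; with bin medians PSF2 0.12 and TOF1 -0.21; after centring without wild-type replicate 1 ORC5 -0.26, SLD2 -0.084, POL12 0.022, RFC3 -0.00014 and TOF1 -0.099; after centring without wild-type replicate 2 MCM3 -0.15, RFA3 -0.33 and TOF1 -0.020. With 1 library left out the log2 fold change ran for ORC5 from -0.34 to 0.81, SLD2 from -0.16 to 0.97, PRI2 from -0.0012 to 0.94, RFC3 from -0.079 to 0.91, TOF1 from -0.18 to 0.21, CSM3 from -0.018 to 0.88, DPB11 from -0.17 to 0.074, POL3 from -0.34 to 0.13, RFA3 from -0.39 to 0.43, POL12 from -0.13 to 0.018 and MCM3 from -0.049 to 0.25. Its sign turned without wild-type replicate 1 in ORC5, SLD2, PRI2, RFC3, TOF1 and CSM3, without wild-type replicate 2 in DPB11, POL3 and RFA3, without hst3 hst4 replicate 1 in ORC5, POL12, RFA3 and TOF1 and without hst3 hst4 replicate 2 in MCM3 and DPB11.

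Between the mutants, signs turned as follows: on the mean-1 columns POL2 -0.019 and RFC2 -0.071; after centring, with or without either wild-type library, DPB11 -0.042, POL2 -0.055, RFC2 -0.049 and MRC1 -0.016; with bin medians PSF2 0.23 and POL2 -0.23. With 1 library left out the log2 fold change ran for PSF2 from -0.52 to 0.35, ORC2 from -0.57 to 0.42 and MCM2 from -0.69 to 0.44. Its sign turned without rtt109 replicate 1 in PSF2, without rtt109 replicate 2 in ORC2 and MCM2, without hst3 hst4 replicate 1 in ORC2 and without hst3 hst4 replicate 2 in PSF2.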
